A study of Mus musculus with 34 samples.

Results

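The 10 genes described here are immediate-early and closely related genes. The FOS family gives Fos, Fosb, Fosl1 and Fosl2, the JUN family Jun, Junb and Jund, and the EGR family Egr1 and Egr2. Ier3 belongs to none of these families. All 10 were taken by symbol from the 37310 gene identifiers in the RNA-seq count files. They were followed in 28 polyA RNA-seq libraries of mouse CAD cells, which are catecholaminergic cells of neuronal origin that divide in serum and become neuron-like when it is taken away. All values are normalised read counts (CPM, counts per 1e6 assigned reads), scaled within an experiment by TMM, a correction for the composition of each library. Levels are therefore compared between groups for 1 gene and not between genes.

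The 3 experiments were sequenced and are treated separately. Experiment 1 held wild-type (WT) cells and cells labelled as the mir-138 DKO, a knockout line for both mir-138 genes, each in 10% serum and after 1 day without serum, with 2 libraries per group and paired reads of 75 bp. Experiment 2 held WT cells in serum and after 4 days without it, with 3 libraries per group. The genotype field of its 4-day libraries reads DKO, while their titles and the design text give WT, and they were analysed as WT. Experiment 3 held only DKO-labelled cells, with 2 libraries in each of 7 groups and single reads of 50 bp; the design text gives 3 per transfected group, the protocol 2. One group, in serum, had no transfection named and is called untransfected below. Its titles add a 2 after DKO that the transfected groups' titles lack, and the titles do not say what it marks. The other groups were transfected with pUC19 plasmid DNA as the control, with a miR-138 mimic or with a miR-137 mimic (mimics at 3 nM), and were taken in serum 2 days after transfection or after 2 days without serum, 4 days after transfection. No label says whether the DKO line is 1 clone or whether replicate libraries came from separate cultures, so each p-value reflects only how far these libraries spread, which may be technical.

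The libraries held 22359075 to 41505181 gene-assigned reads in experiment 1, 19900317 to 28631969 in experiment 2 and 12740836 to 25582125 in experiment 3. The 12 catecholaminergic and neuronal markers summed to 2056.3 to 4492.6 CPM in the WT libraries of experiment 1 and to 493.7 to 630.9 CPM in the DKO-labelled ones. Th, the defining enzyme of catecholamine synthesis, was low throughout, at 1.11 to 2.17 CPM in WT libraries of experiment 1, and had no read in the DKO-labelled serum libraries there. PolyA reads at Mir138-1, one of the targeted loci, were at 0.558 to 1.37 CPM in WT and 5.93 to 10.9 CPM in DKO-labelled libraries of experiment 1, at 0.503 to 1.75 CPM in experiment 2 and at 0.945 to 2.88 CPM in experiment 3, and Mir138-2 had none in any library. These counts, higher in the DKO-labelled libraries of experiment 1, do not check the deletion itself. The 2 DKO-labelled serum libraries of experiment 1 differed from each other more than the other pairs of that experiment, with a chi-square per degree of freedom of 25.16 against 5.56 to 7.11. Results that change without one of them are given with their values below. In experiment 2 the pairs of 4-day libraries stood at 13.65 to 28.36 by the same measure. The pairs of its serum libraries stood at 8.63 to 9.94. Glial markers summed to at most 18.7 CPM and fibroblast markers to at most 38.1 CPM, both in cells 2 days without serum after the miR-138 mimic.

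FOS and JUN proteins are basic leucine zipper factors that pair into AP-1, which binds DNA as FOS:JUN or JUN:JUN dimers. Fos, Egr1 and several of their relatives are switched on within minutes of a growth factor, depolarisation or stress signal, largely through ERK acting on ternary complex factors that sit with serum response factor (SRF) on their promoters, and their mRNAs decay quickly. EGR proteins are zinc-finger factors held back by the NAB corepressors. In neurons the same genes report recent activity and growth factor signalling. The serum-free libraries were taken a day or more after serum removal, so the first minutes and hours were not sampled.

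Promoter sequence was available from RefSeq (GRCm38.p6) for 8 of the 10 members, all but Egr1 and Fosl1, which were not searched. The 250 bases before each start were searched on both strands, so sites further upstream were not seen. Egr2 had 5 windows and so more sequence in which letters could be found. The TGACG core of the cAMP response element, through which CREB and ATF proteins act, was present for Fos, Fosb, Junb and Egr2 and in 17.8% of all 32807 promoter windows. The CArG box, the SRF site, was present for Egr2 and in 1.47% of windows. The letters TGACATCA, a site known from the Jun promoter, were present for Jun and in 2.93% of windows, and the EGR site GCGNGGGCG was present for Fosb and Fosl2 and in 4.7% of windows. The AP-1 site TGANTCA (6.75% of windows) and the complete element TGACGTCA (1.55%), which contains the TGACG core, were in no member's window. The 3 stretches below are shown because they hold these letters upstream of a FOS, a JUN and an EGR gene, 5′ to 3′ on the gene's strand. Capitals mark the TGACG core for Fos, TGACATCA for Jun and the CArG box for Egr2, whose stretch also holds the TGACG core on each strand, left in lower case. They are Fos at chr12:85473750-85473839 (plus strand), Jun at chr4:95052223-95052302 (minus strand) and Egr2 at chr10:67537749-67537828 (plus strand).
Fos: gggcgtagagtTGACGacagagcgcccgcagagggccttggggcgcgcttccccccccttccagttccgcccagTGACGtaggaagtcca
Jun: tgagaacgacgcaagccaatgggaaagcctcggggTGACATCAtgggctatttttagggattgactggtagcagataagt
Egr2: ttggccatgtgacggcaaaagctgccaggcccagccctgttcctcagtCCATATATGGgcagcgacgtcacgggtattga

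The mimics stand for mature microRNAs whose RefSeq sequences share no seed (bases 2 to 8, in capitals), the part that pairs with target sites. They are shown because the members responded differently to them.
miR-138-5p: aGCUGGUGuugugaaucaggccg
miR-137-3p: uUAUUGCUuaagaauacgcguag

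In WT cells, 1 day without serum went with higher Fos, Fosl2, Jun, Jund, Egr1 and Ier3 and slightly lower Junb. The changes were called with edgeR's quasi-likelihood test at an adjusted p (Benjamini-Hochberg over all 13630 genes of that experiment) under 0.05. Of the 10 members 9 passed the filter on low counts, of which 6 were higher, 1 lower and 2 not called. Over all genes, 40.7% were called in this comparison, 7 of these 9 members were, and the median log2 fold change was 0.84 for the members against 0.02 for all genes.

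Egr1 (ENSMUSG00000038418), the zinc-finger factor that is the family's main early responder, stood at 102 and 111 CPM in WT serum libraries and at 229.5 and 230.5 CPM after 1 day. The 1-day libraries were both above the serum libraries and close together, and the log2 fold change was 1.11 ± 0.07 (SE, n = 2 per group, edgeR adjusted p = 4.46e-08). Fos (ENSMUSG00000021250), the prototype AP-1 partner of JUN, stood at 10.3 and 11.5 CPM in serum and 21.1 and 20.7 CPM after 1 day (0.94 ± 0.13, edgeR adjusted p = 4.67e-05). Ier3 (ENSMUSG00000003541), an early response gene that modulates ERK signalling and cell survival, rose from 23.9 and 25.0 CPM to 45.2 and 42.7 CPM (log2 0.84 ± 0.10). For each of these genes the groups did not overlap.

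Among the JUN genes, Jun (ENSMUSG00000052684), the main FOS partner, rose from 127 and 120.3 CPM to 185 and 182 CPM (log2 0.57 ± 0.07). Jund (ENSMUSG00000071076), the JUN member that is usually present in resting cells, rose from 113 and 102 CPM to 199 and 192 CPM (log2 0.87 ± 0.08). Junb (ENSMUSG00000052837), often a weaker activator than JUN, went the other way, from 138 and 136 CPM to 118 and 112 CPM (log2 -0.25 ± 0.07, edgeR adjusted p = 0.0131). That call was lost without either WT serum library or without the second 1-day library (adjusted p 0.0559 to 0.133).

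Fosl2 (ENSMUSG00000029135), the FRA2 member of the FOS family, rose from 47.0 and 44.7 CPM to 78.4 and 67.7 CPM (log2 0.67 ± 0.10). Fosb (ENSMUSG00000003545), a FOS member known from long-lasting neuronal responses, had 34 reads in serum and 39 after 1 day over both libraries, with a log2 difference of 0.50 ± 0.78. Egr2 (ENSMUSG00000037868), the EGR member known from hindbrain and Schwann cell development, had 29 and 62 reads, with a log2 difference of 1.33 ± 0.72. Neither of these was called, and at these counts only large differences could be. Fosl1 (ENSMUSG00000024912), the FRA1 member, had no read in any library of experiments 1 and 2 and at most 1 read in a library of experiment 3, where 3 reads correspond to 0.117 to 0.235 CPM.

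The DKO-labelled cells changed a different set of members over the same day. Of the 9 tested members, 4 rose, 2 fell and 3 were not called, while 40.3% of all genes were called. Egr1 stood at 118 and 121 CPM in serum and 118 and 111 CPM after 1 day, a log2 difference of -0.06 ± 0.07. Fos stood at 19.4 and 19.3 CPM in serum and 20.7 and 21.9 CPM after 1 day, a log2 difference of 0.14 ± 0.12 (edgeR adjusted p = 0.406). For both genes the change was small next to that in WT cells, and the Egr1 groups overlapped.

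Jun fell in DKO-labelled cells, from 115 and 119.9 CPM to 88.8 and 89.5 CPM (log2 -0.40 ± 0.07), where it had risen in WT cells. Jund stood at 62.8 and 72.3 CPM in serum and 67.7 and 66.8 CPM after 1 day, a log2 difference of 0.00 to 2 decimals with an SE of 0.08. Junb fell from 118 and 124 CPM to 94.9 and 86.1 CPM (log2 -0.41 ± 0.07). Ier3 had its larger 1-day rise here, from 33.0 and 34.8 CPM to 96.7 and 85.3 CPM (log2 1.42 ± 0.09, edgeR adjusted p = 6.26e-08), and Fosl2 rose from 57.2 and 48.7 CPM to 98.7 and 91.0 CPM (log2 0.84 ± 0.10).

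The low-count members Fosb and Egr2 were called higher in DKO-labelled cells after 1 day. Fosb rose from 0.147 and 0.926 CPM to 2.04 and 2.15 CPM (log2 2.02 ± 0.75, edgeR adjusted p = 0.0451). Egr2 rose from 0.0735 and 0.356 CPM to 1.26 and 1.08 CPM (log2 2.51 ± 0.79, edgeR adjusted p = 0.0194). Both calls were lost without the first DKO-labelled serum library, where the Fosb change was 1.17 and the Egr2 change 1.69. They were also lost without either 1-day library, which left 1 in that group. The changes there were 2.04 and 1.995 for Fosb and 2.37 and 2.63 for Egr2. Fosb also missed the threshold when the compared groups were fitted alone (0.0522).

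The difference between the lines' 1-day changes was tested as an interaction, which was called for 9.72% of all genes. Of the 9 tested members 5 were called, 4 with a smaller or opposite change in DKO-labelled cells and 1 with a larger one. The difference of log2 changes (DKO minus WT) was -1.17 ± 0.10 for Egr1 (edgeR adjusted p = 4.86e-06), -0.97 ± 0.09 for Jun, -0.87 ± 0.12 for Jund and -0.80 ± 0.18 for Fos (adjusted p = 0.0105). For Ier3 it was 0.58 ± 0.13 (edgeR adjusted p = 0.013). The calls for Egr1, Jun and Jund held in every alternative tried, whereas leaving out single libraries lost those for Fos (adjusted p 0.0575 to 0.0665, without the first WT serum, first WT 1-day or first DKO-labelled 1-day library) and Ier3 (0.0791 to 0.0906, without the second WT serum, second WT 1-day or first DKO-labelled 1-day library). Without the first DKO-labelled 1-day library 3 members were called. Fosb (1.52 ± 1.08), Egr2 (1.17 ± 1.07), Fosl2 (0.17 ± 0.14) and Junb (-0.17 ± 0.10) were not called, but Fosb was without the second DKO-labelled serum library (3.34, adjusted p = 0.0294), which made 6 members.

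In serum the lines differed in 3 members, with 40.7% of all genes called. Fos was higher in DKO-labelled cells (log2 0.83 ± 0.13, edgeR adjusted p = 0.000118), Ier3 was higher (0.47 ± 0.10) and Jund was lower (-0.67 ± 0.08). Fosl2 (0.21 ± 0.10), Junb (-0.18 ± 0.07), Egr1 (0.17 ± 0.07), Jun (-0.08 ± 0.07), Fosb (-0.14 ± 0.80) and Egr2 (-1.25 ± 0.82) were not called. Without the second DKO-labelled serum library 6 members were called, with Fosl2 added (0.33, adjusted p = 0.00715), Junb (-0.21, 0.0275) and Egr2 (-2.66, 0.047). After 1 day, when 44.9% of all genes were called, 6 members differed: Fosl2 (0.38 ± 0.10) and Ier3 (1.05 ± 0.09) were higher and Jun (-1.04 ± 0.07), Junb (-0.35 ± 0.07), Jund (-1.54 ± 0.08) and Egr1 (-1.0 ± 0.07) lower in DKO-labelled cells. The Fosl2 call was lost without the second WT 1-day or the first DKO-labelled 1-day library (0.102 and 0.0793) and the Junb call without the second DKO-labelled 1-day library (0.0625). Fos (0.03 ± 0.12), Egr2 (-0.08 ± 0.68) and Fosb (1.39 ± 0.74) were not called, though Fosb was with no filter on low counts (0.0498) and with the 2 groups fitted alone (0.0151). Genotype and cell line cannot be told apart here, because each genotype is 1 line in the labels.

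**Figure D1:**
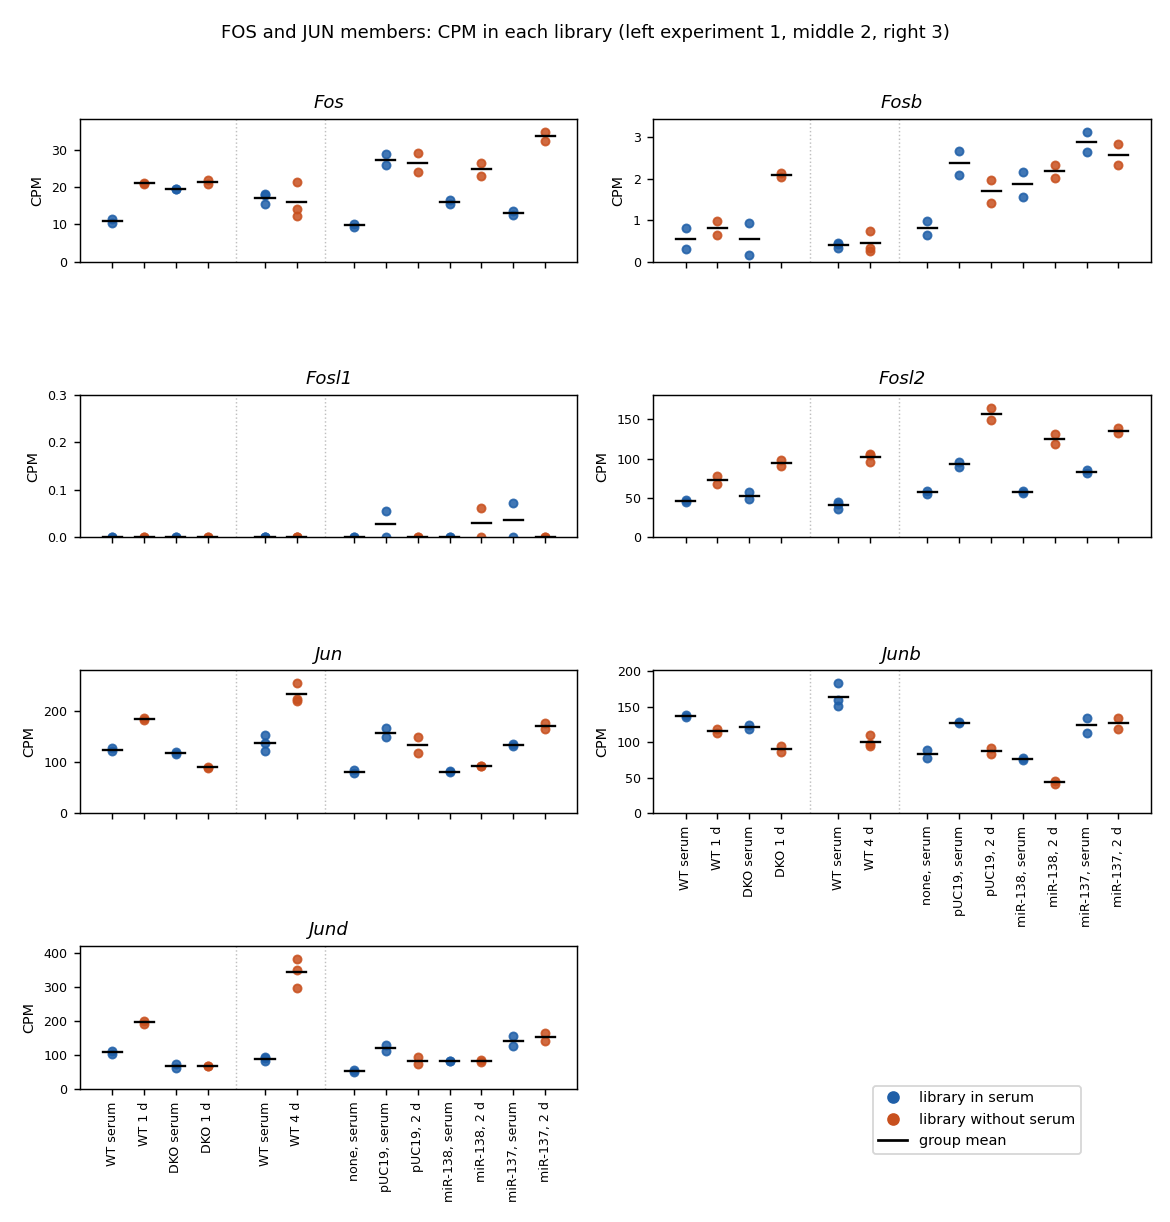
Levels of the FOS and JUN members in CPM (vertical axes, each starting at 0) in every library of the 13 groups on the horizontal axis, blue in serum and orange without serum, with black bars at group means. Jund and Jun rise without serum in WT cells and Jun falls in DKO-labelled cells of experiment 1, and Fosl1 is at or near 0 everywhere.

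**Figure D2:**
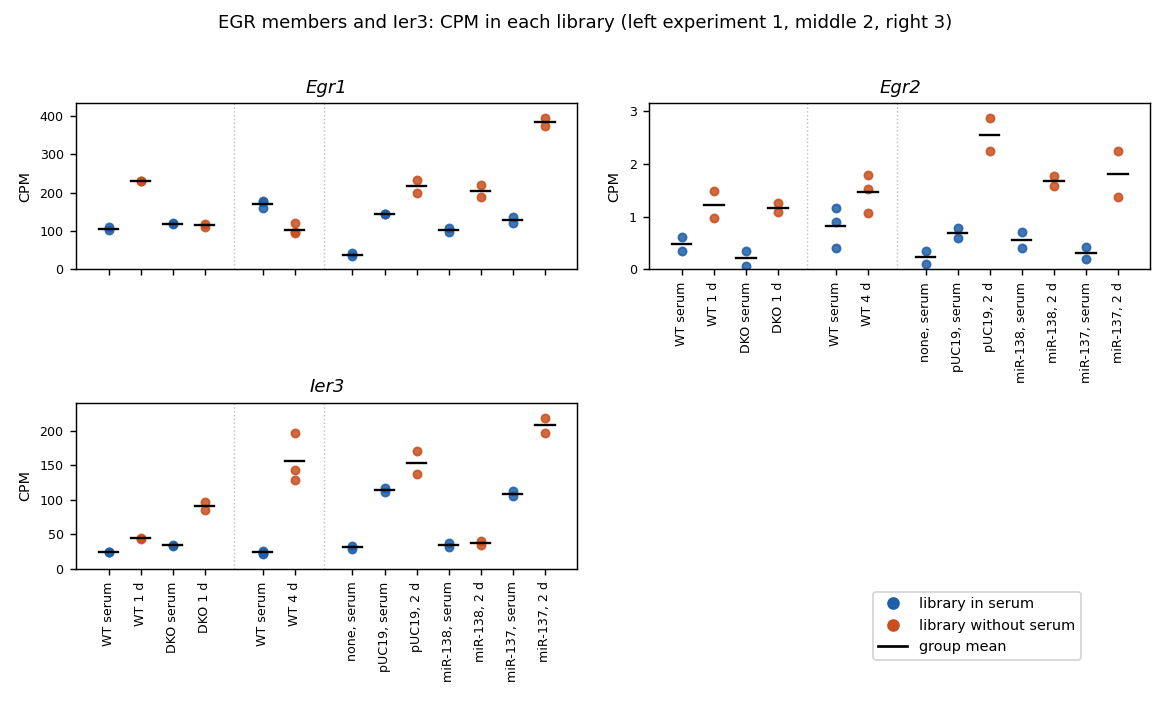
Levels of Egr1, Egr2 and Ier3 in CPM (vertical axes, each starting at 0) in every library, with groups and colours as for the FOS and JUN members. Egr1 reaches 373 and 392 CPM 2 days without serum after the miR-137 mimic, and Ier3 stays between 32.1 and 40.6 CPM in all 4 libraries with the miR-138 mimic.

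The list of ERK phosphatases and EGR corepressors held DUSP, Sprouty and SPRED genes, which act as brakes on ERK signalling, and the NAB corepressors. Of its 12 genes 9 rose and 1 fell in WT cells after 1 day, and 6 rose and 1 fell in DKO-labelled cells. Counts over this and the other gene lists carry no test of the list. They are to be read beside the share of all genes called in the same comparison. For the 1-day changes that share was 40.7% in WT and 40.3% in DKO-labelled cells. Dusp6, the ERK-specific phosphatase, rose from a mean of 279 to 520.2 CPM in WT cells (log2 0.90 ± 0.06) and from 404 to 654 CPM in DKO-labelled cells (0.70 ± 0.06). Dusp2, a nuclear phosphatase of the same family, fell in both (-1.32 ± 0.16 and -1.60 ± 0.17). No gene of this list was called in the interaction test of the lines' 1-day changes, although 4 were higher and 4 lower in DKO-labelled than in WT cells both in serum and after 1 day.

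Other early response genes split in both directions. In WT cells 6 of 23 tested rose and 4 fell after 1 day, and in DKO-labelled cells 5 rose and 6 fell. Btg2, an antiproliferative early gene, rose in both lines (2.16 ± 0.18 and 1.44 ± 0.18), and Ier5 fell in both (-0.97 ± 0.10 and -0.67 ± 0.09). Atf3, a stress-induced AP-1 partner, rose from 3.66 to 12.3 CPM in DKO-labelled cells (1.75 ± 0.19), and its change differed between the lines (1.22 ± 0.27, edgeR adjusted p = 0.0108).

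Genes that SRF and its MRTF cofactors drive, mostly actin cytoskeleton genes, fell for 9 of 10 tested in DKO-labelled cells after 1 day and for 3 of 10 in WT cells, where 1 rose. The difference between the lines' changes was called for 3 of the 10, each with a lower change in DKO-labelled cells. Against WT cells, 7 of the 10 were higher and 1 lower in DKO-labelled cells in serum, with 40.7% of all genes called. After 1 day 2 were higher and 3 lower, with 44.9% of all genes called. Cnn2, a calponin, fell from 50.4 to 17.4 CPM in DKO-labelled cells (-1.54 ± 0.12), and its change differed between the lines (-1.23 ± 0.18). Of the 9 tested textbook AP-1 and EGR targets, none rose and 3 fell in WT cells, among them Hmox1, a haem-degrading stress enzyme (-1.33 ± 0.12). In DKO-labelled cells 1 rose and 2 fell, and Vegfa, the vascular growth factor, rose from 151 to 439 CPM (1.54 ± 0.07). Markers of dividing cells moved in the same comparisons: their summed level fell from 2634.3 to 2679.2 CPM down to 1345.1 to 1414.2 CPM in WT cells and from 3181.3 to 3345.6 CPM down to 2492.3 to 2520.6 CPM in DKO-labelled cells, and their part in the members' changes was not tested. In bulk RNA, fewer cells expressing a gene and less RNA per cell cannot be told apart.

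After 4 days without serum, WT cells had raised Ier3, Jund, Fosl2 and Jun and lowered Egr1 and Junb. Of the 8 members tested, 4 rose, 2 fell and 2 were not called, while 70.9% of all 13283 genes were called, and the members' median log2 fold change was 0.78 against 0.04 for all genes. The 6 called of 8 lie close to the share over all genes, and only sizes and directions are described. Ier3 stood at 25.6, 21.8 and 23.5 CPM in serum and at 128, 143 and 197 CPM after 4 days (log2 2.73 ± 0.14, n = 3 per group, edgeR adjusted p = 1.29e-09). Jund stood at 89.7, 82.3 and 92.9 CPM and at 382, 298 and 352 CPM (1.96 ± 0.10, adjusted p = 5.88e-10). No 4-day library of either gene came near a serum library.

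Egr1 fell over the 4 days, from 177, 159 and 174 CPM to 93.6, 97.9 and 120.3 CPM (log2 -0.71 ± 0.10), although it was up after 1 day in the other experiment. Junb fell from 151, 159 and 183 CPM to 98.0, 95.1 and 109 CPM (-0.70 ± 0.09). Fosl2 rose from 44.3, 35.8 and 42.3 CPM to 105, 106 and 95.5 CPM (1.33 ± 0.10). The 4-day and 1-day samples come from separate experiments, so their difference was not tested.

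Jun rose from 121, 138 and 152 CPM to 253, 219 and 222 CPM (0.76 ± 0.09). Fos was not called (-0.10 ± 0.20): it stood at 18.2, 15.4 and 17.7 CPM in serum and 12.1, 14.1 and 21.4 CPM after 4 days, so that the 4-day libraries spanned the serum ones. Egr2 was at 0.411 to 1.16 CPM in serum and 1.07 to 1.79 CPM after 4 days (0.81 ± 0.57, not called), and Fosb, at 0.257 to 0.741 CPM, was below the filter on low counts. The WT serum libraries of experiment 2 had higher Fos and Egr1 CPM than those of experiment 1 (Fos 10.3 and 11.5 CPM, Egr1 102 and 111 CPM). Since values were scaled within an experiment, that gap was not tested.

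Other early genes rose and fell in equal number over 4 days, 8 of 23 each. Over all genes 70.9% were called in this comparison, so the list counts here are described only. Rhob, a small GTPase, rose from 43.1 to 229.9 CPM (2.42 ± 0.08), Klf6 rose from 28.7 to 132 CPM (2.20 ± 0.11), and Phlda1 fell from 87.4 to 32.4 CPM (-1.43 ± 0.10). Of the 12 ERK phosphatases and corepressors 7 rose and 2 fell, with Dusp6 higher (1.39 ± 0.07), Dusp1 higher (1.76 ± 0.13) and Nab2, an EGR corepressor, lower (-0.85 ± 0.09). In the route from RAS and MAP kinases to SRF, 8 of 22 genes rose and 10 fell, with Srf itself lower (-0.99 ± 0.12) and Mapk3, which encodes ERK1, higher (1.73 ± 0.10). Dividing-cell markers summed to 2159.5 to 2261.7 CPM in serum and 15.2 to 56.2 CPM after 4 days, and their part in these changes was not tested.

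**Figure D3:**
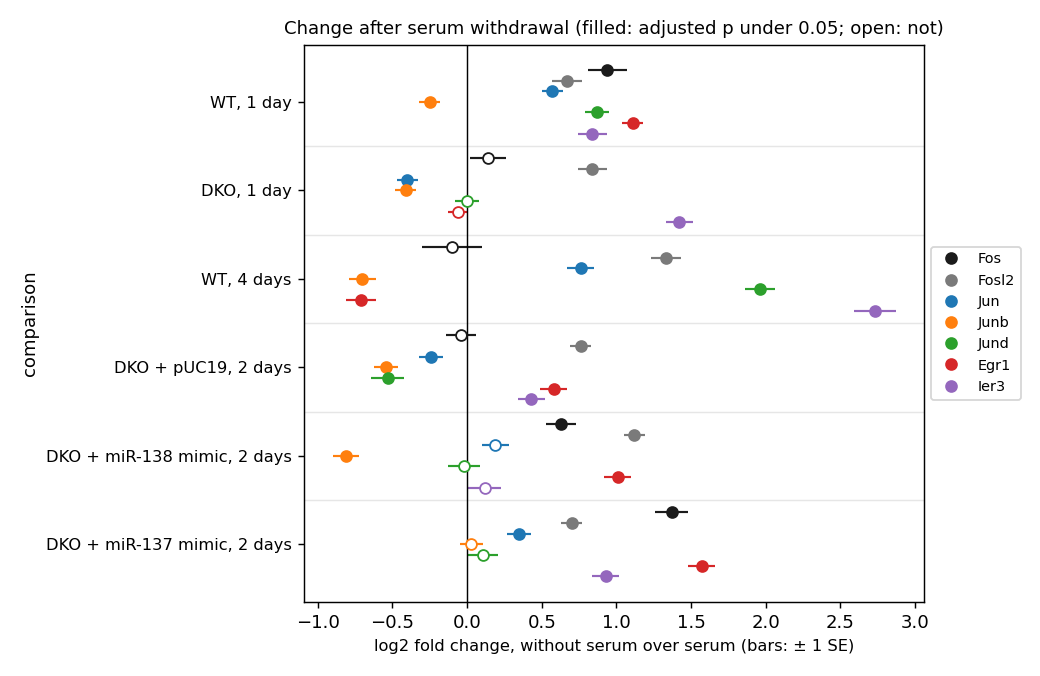
Log2 fold change of 7 members after serum withdrawal (horizontal axis, positive means higher without serum) in each of 6 comparisons (vertical axis), with bars of 1 SE and filled symbols for an edgeR adjusted p under 0.05. Fosl2 lies to the right of 0 in all 6, Egr1 lies between -0.71 (WT, 4 days) and 1.57 (miR-137 mimic), and Ier3 spans 0.12 to 2.73.

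Experiment 3 first compares pUC19-transfected with untransfected DKO-labelled cells, all in serum. Every tested member had a higher mean after pUC19, and 8 of 9 were called higher, while 26.2% of all 12655 genes were called and 10.7% were called higher. The members' median log2 fold change was 1.49 against -0.04 for all genes. Egr1 stood at 34.6 and 41.8 CPM without and 144 and 145 CPM with pUC19 (log2 1.92 ± 0.10, n = 2 per group, edgeR adjusted p = 2.47e-11). Ier3 stood at 29.4 and 33.0 CPM and at 111 and 118 CPM (1.87 ± 0.10, adjusted p = 6.97e-11). Transfection reagent, plasmid DNA, handling and whatever the 2 in the untransfected group's titles marks cannot be told apart in this comparison.

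Fos rose from 10.1 and 9.31 CPM to 25.9 and 28.7 CPM with pUC19 (log2 1.49 ± 0.11). Jund rose from 48.4 and 55.1 CPM to 113 and 128 CPM (1.21 ± 0.11), and Jun from 77.6 and 83.8 CPM to 148 and 167 CPM (0.96 ± 0.09). The smaller changes were those of Fosl2 (0.70 ± 0.07) and Junb (0.62 ± 0.08). Fosb rose by 1.53 ± 0.32 from 31 to 72 reads per group. Egr2, with 9 and 21 reads, was not called (1.51 ± 0.60, edgeR adjusted p = 0.0662) but was with no filter on low counts (0.0342), with unstranded counts (0.043) and without the second untransfected library (0.0389).

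Other early genes rose too, 11 of 23 tested with none falling, at a median log2 fold change of 0.56. Over all genes 26.2% were called and 10.7% were called higher. Atf3 rose from 4.55 to 57.1 CPM (3.65 ± 0.19), Phlda1 from 26.4 to 62.9 CPM (1.25 ± 0.09), Ier2 from 33.5 to 66.5 CPM (0.99 ± 0.09) and Klf6 from 102 to 239.5 CPM (1.24 ± 0.12). Among AP-1 and EGR targets, Hmox1 rose from 87.7 to 447 CPM (2.35 ± 0.07). Of the 22 genes of the ERK, JNK and SRF route 2 rose and 2 fell, and of the ERK phosphatases and corepressors 3 rose, led by Dusp1 (1.31 ± 0.11), and 5 fell. The untransfected DKO-labelled serum cells of experiment 1 had held Egr1 at 118 and 121 CPM and Fos at 19.4 and 19.3 CPM, above the untransfected serum cells of experiment 3. Since library type and read length differ, that gap was not tested.

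With the miR-138 mimic in serum, 7 of the 9 tested members were lower than with pUC19 and none was higher, while 56.0% of all genes were called and 27.3% were called lower. The median was -0.70 for the members and 0.03 for all genes. In each comparison of a mimic with pUC19, the microRNA sequence and the kind of nucleic acid transfected cannot be told apart. The same holds for the interactions with pUC19 below. Ier3 stood at 32.1 and 36.7 CPM with the mimic, against 111 and 118 CPM with pUC19 (log2 -1.73 ± 0.10, edgeR adjusted p = 2.41e-11). Jun stood at 81.6 and 79.2 CPM against 148 and 167 CPM (-0.97 ± 0.08), and Fos at 16.6 and 15.5 CPM against 25.9 and 28.7 CPM (-0.76 ± 0.10). Both pUC19 libraries were above both mimic libraries for each of these genes.

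The other called members were Junb (-0.74 ± 0.08), Fosl2 (-0.70 ± 0.07), Jund (-0.55 ± 0.10) and Egr1 (-0.51 ± 0.09). Fosb (-0.33 ± 0.26) and Egr2 (-0.29 ± 0.47) were not called, with 97 and 29 reads in the mimic group. The pUC19 serum libraries are also the higher group in the comparison with untransfected cells, so the members' position between those groups is best read from the levels. Jun, Junb, Fosl2 and Ier3 with the miR-138 mimic overlapped the untransfected libraries, whereas Egr1, at 107 and 96.2 CPM, Jund, at 81.9 and 81.8 CPM, and Fos stayed above them.

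Of the other early genes 16 of 23 were lower with the miR-138 mimic than with pUC19 and 2 higher. Over all genes 56.0% were called and 27.3% were called lower. Arc, a neuronal activity gene, was at 6.57 against 19.2 CPM (-1.55 ± 0.13), and Ier5l at 2.38 against 8.98 CPM (-1.88 ± 0.19). Among AP-1 relatives 7 of 10 were lower and none higher, with Maff (-1.69 ± 0.13), Atf1 (-1.07 ± 0.08) and Creb1 (-0.67 ± 0.06). In the ERK, JNK and SRF route 12 of 22 were lower and 6 higher, and Rps6ka1, a kinase downstream of ERK, was at 58.3 against 140 CPM (-1.26 ± 0.06). Dividing-cell markers summed to 1504.6 to 1556.8 CPM with the miR-138 mimic, 2845.4 to 3065.4 CPM with pUC19 and 3489.1 to 3558.5 CPM with the miR-137 mimic, all in serum, and their part in the members' levels was not tested.

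At 2 days after serum removal the miR-138 mimic still went with lower Ier3 and Junb than pUC19. Of the 9 tested members 4 were lower and none higher, while 62.0% of all genes were called and 31.1% were called lower. Ier3 stood at 34.7 and 40.6 CPM with the mimic and 137 and 170.4 CPM with pUC19 (log2 -2.03 ± 0.10, edgeR adjusted p = 2.82e-12). Junb stood at 41.3 and 45.4 CPM against 83.9 and 91.0 CPM (-1.02 ± 0.09), the lowest Junb level of any group in experiment 3. Jun (-0.53 ± 0.09) and Fosl2 (-0.33 ± 0.07) were the others called, and Fosb (0.38 ± 0.29) and Egr2 (-0.59 ± 0.32) were not.

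Fos, Jund and Egr1, which were lower with the miR-138 mimic in serum, were not called at this time. The differences were -0.09 ± 0.10 for Fos, -0.04 ± 0.11 for Jund and -0.08 ± 0.08 for Egr1. The libraries of both groups overlapped for all 3 genes: Egr1 was at 221 and 189 CPM with the mimic and at 200.1 and 233 CPM with pUC19. Of the 12 ERK phosphatases and corepressors 10 were lower and none higher, led by Spry1 at 34.4 against 85.3 CPM (-1.31 ± 0.08), and of the other early genes 14 of 23 were lower and 3 higher. Over all genes 62.0% were called and 31.1% were called lower. Ccnd1, cyclin D1 and a textbook AP-1 target, was at 48.5 against 170.1 CPM (-1.81 ± 0.06).

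The miR-137 mimic gave another picture. In serum 2 of 9 tested members were lower than with pUC19 and none was higher, while 45.6% of all genes were called. Fos stood at 13.5 and 12.4 CPM against 25.9 and 28.7 CPM (log2 -1.07 ± 0.11, edgeR adjusted p = 2.36e-07). Jun differed by -0.24 ± 0.08 (adjusted p = 0.0278), a call lost without either mimic library (0.0832 and 0.134) or without the second pUC19 library (0.274). Ier3, at 113 and 105 CPM, differed from pUC19 by -0.06 ± 0.09, and its groups overlapped. The others not called were Fosl2 (-0.15 ± 0.07), Junb (-0.04 ± 0.08), Jund (0.24 ± 0.10), Egr1 (-0.17 ± 0.09), Fosb (0.31 ± 0.26) and Egr2 (-1.11 ± 0.61). With no filter on low counts 4 members were called and with the 2 groups fitted alone 5, Jund (0.00234 and 0.00767) and Egr1 (0.0296 and 0.0188) under both, and Jund also without the second mimic library (0.0136) or the second pUC19 library (0.0422).

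At 2 days without serum, 6 of the 9 tested members were higher with the miR-137 mimic than with pUC19 and 1 lower, while 42.7% of all genes were called. Egr1 stood at 373 and 392 CPM against 200.1 and 233 CPM (log2 0.82 ± 0.08, edgeR adjusted p = 1.64e-07), the highest Egr1 level of any group in experiment 3. Jund was at 142 and 164 CPM against 73.0 and 93.7 CPM (0.88 ± 0.11), Junb at 119 and 134 CPM against 83.9 and 91.0 CPM (0.53 ± 0.08) and Ier3 at 198 and 219 CPM against 137 and 170.4 CPM (0.44 ± 0.09). The changes of Jun (0.36 ± 0.08), Fos (0.34 ± 0.10) and Fosl2 (-0.21 ± 0.07) were smaller. Each lost its call without single libraries: Jun without the first pUC19 library (0.0528), Fos without that library (0.165) or the second mimic library (0.0883), and Fosl2 without the first mimic library (0.123) or the second pUC19 library (0.155). Fosb (0.62 ± 0.29) and Egr2 (-0.49 ± 0.32) were not called.

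Of the other early genes 9 of 23 were higher and 8 lower with the miR-137 mimic 2 days without serum. Over all genes 42.7% were called in either direction. Phlda1 was higher (0.94 ± 0.08), as was Csrnp1 (1.08 ± 0.12), while Sik1, a kinase of the CREB pathway, was lower (-0.89 ± 0.08). In the ERK, JNK and SRF route 11 of 22 were higher and 1 lower, led by Mapk10, the neuronal JNK3, at 57.2 against 19.5 CPM (1.55 ± 0.09). Of the ERK phosphatases and corepressors 3 were higher and 6 lower, and Dusp4 was at 390.4 against 699 CPM (-0.84 ± 0.05). Plaur, the urokinase receptor and an AP-1 target, was at 58.6 against 26.8 CPM (1.13 ± 0.09).

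The 2 mimics were compared directly at the same dose and times, with 63.4% of all genes called in serum (30.7% called lower) and 61.6% without serum (30.8% called lower). In serum 7 of the 9 tested members were lower with miR-138 than with miR-137 and 1 was higher. Ier3 differed most (log2 -1.66 ± 0.10, edgeR adjusted p = 1.6e-11), followed by Jund (-0.79 ± 0.10), Jun (-0.73 ± 0.08), Junb (-0.71 ± 0.08) and Fosl2 (-0.54 ± 0.07). Egr2 (0.82 ± 0.58) was not called. Fos was the member that was higher with miR-138 (0.31 ± 0.11), but that call was lost with DESeq2 (0.0848), without the first miR-138 library (0.118) and without the second miR-137 library (0.157). The lower calls of Fosb (-0.64 ± 0.25) and Egr1 (-0.34 ± 0.09) also depended on libraries: Fosb was lost with DESeq2 (0.14), without the second miR-138 library (0.238) and without the first miR-137 library (0.203), and Egr1 without the first miR-137 library (0.0528).

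At 2 days without serum 6 of 9 were lower with miR-138 than with miR-137 and none was higher. The differences were -2.47 ± 0.10 for Ier3 (edgeR adjusted p = 1.05e-13), -1.55 ± 0.09 for Junb, -0.92 ± 0.11 for Jund, -0.90 ± 0.09 for Jun, -0.90 ± 0.08 for Egr1 and -0.44 ± 0.10 for Fos. Fosl2 (-0.12 ± 0.07), Fosb (-0.24 ± 0.28) and Egr2 (-0.10 ± 0.35) were not called.

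**Figure D4:**
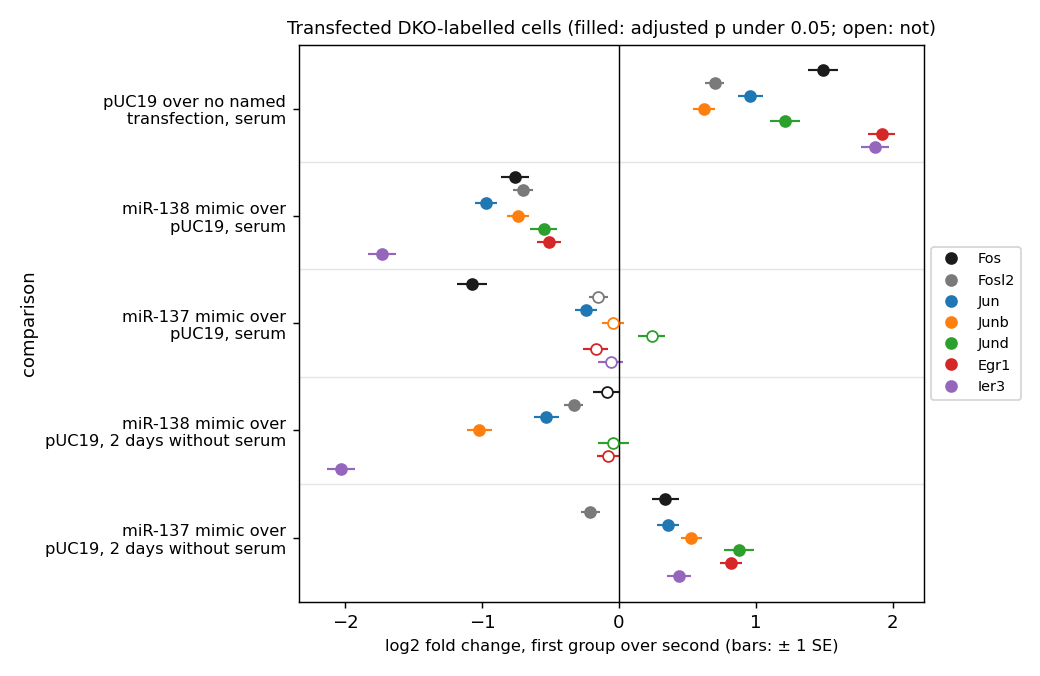
Log2 fold change of 7 members between groups of transfected DKO-labelled cells (horizontal axis, positive means higher in the group named first) in 5 comparisons (vertical axis), with bars of 1 SE and filled symbols for an edgeR adjusted p under 0.05. All 7 lie right of 0 for pUC19 over no transfection and left of 0 for the miR-138 mimic over pUC19 in serum, and Ier3 has the lowest value for that mimic at both times.

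Serum removal was also followed within each transfected group. The serum groups were taken 2 days and the serum-free groups 4 days after transfection, so serum removal and time since transfection cannot be told apart here or in the interactions with them. In pUC19 cells 4 of 9 members rose, 3 fell and 2 were not called, with 59.7% of all genes called. Fosl2 rose from 89.6 and 96.4 CPM to 149.5 and 165 CPM (log2 0.76 ± 0.07), Egr1 from 144 and 145 CPM to 200.1 and 233 CPM (0.58 ± 0.09), and Ier3 from 111 and 118 CPM to 137 and 170.4 CPM (0.43 ± 0.09). Egr2 rose from 21 to 80 reads (1.89 ± 0.38), and Fos (-0.04 ± 0.10) and Fosb (-0.47 ± 0.29) were not called. Junb (-0.54 ± 0.08), Jund (-0.53 ± 0.11) and Jun (-0.24 ± 0.08) fell, the Jun call being lost with the 2 groups fitted alone (0.0729), without the second serum library (0.264) or without the first library of the later time (0.425), where the change was -0.14 and -0.07.

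With the miR-138 mimic 4 of 9 rose, 1 fell and 4 were not called, with 63.3% of all genes called. Fosl2 (1.12 ± 0.07), Egr1 (1.01 ± 0.09), Fos (0.63 ± 0.10) and Egr2 (1.59 ± 0.38) rose and Junb fell (-0.81 ± 0.09), while Ier3 (0.12 ± 0.11), Jund (-0.02 ± 0.11) and Fosb (0.23 ± 0.26) were not called. Jun (0.19 ± 0.09, edgeR adjusted p = 0.0667) passed the threshold under 5 alternatives (0.0114 to 0.0495). With the miR-137 mimic 6 of 9 rose and none fell, with 65.8% of all genes called. For both mimics the members called lie close to the share over all genes. With the miR-137 mimic 4202 of all 12655 genes were called higher and 4127 lower. Egr1 rose by 1.57 ± 0.09 (adjusted p = 8.6e-12), Fos by 1.37 ± 0.11, Egr2 by 2.51 ± 0.50, Ier3 by 0.93 ± 0.09, Fosl2 by 0.70 ± 0.07 and Jun by 0.35 ± 0.08, while Jund (0.11 ± 0.10), Junb (0.03 ± 0.08) and Fosb (-0.16 ± 0.26) were not called.

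These responses were then tested against that of pUC19 cells, which serve both tests. The miR-138 interaction was called for 27.8% of all genes and for 5 of 9 members, each with a higher change than in pUC19 cells: Fos (0.67 ± 0.15, edgeR adjusted p = 0.00189), Jund (0.51 ± 0.15), Jun (0.43 ± 0.12), Egr1 (0.43 ± 0.12) and Fosl2 (0.36 ± 0.09). The miR-137 interaction was called for 23.3% of all genes and for 6 of 9 members: Fos (1.41 ± 0.15, edgeR adjusted p = 1.88e-06), Egr1 (0.99 ± 0.12), Jund (0.64 ± 0.15), Jun (0.60 ± 0.12), Junb (0.57 ± 0.12) and Ier3 (0.50 ± 0.13). All called miR-137 members kept their calls in every alternative tried. Of the miR-138 ones, Fos and Fosl2 did, whereas Jun was lost without the second pUC19 serum library (0.0735) or the first pUC19 library without serum (0.0607), Jund without either of these (0.0809 and 0.0867), without the second miR-138 library without serum (0.0642) and with DESeq2 (0.0622), and Egr1 without the first pUC19 library without serum (0.0551), the second miR-138 serum library (0.0656) or the first miR-138 library without serum (0.0939). Without either of the pUC19 libraries named, 3 members were called. Not called were Fosb (0.71 ± 0.39), Junb (-0.27 ± 0.12), Egr2 (-0.30 ± 0.57) and Ier3 (-0.30 ± 0.14) for miR-138, and Fosb (0.31 ± 0.39), Fosl2 (-0.06 ± 0.10) and Egr2 (0.62 ± 0.70) for miR-137. For miR-138, Ier3 was called with a lower change with no filter on low counts (-0.34, edgeR adjusted p = 0.00685). It was also called lower with the replicate number as a block (-0.29, edgeR adjusted p = 0.0431). Junb was called lower with no filter (-0.31, edgeR adjusted p = 0.0143). Without the first pUC19 library without serum the Ier3 difference was -0.46.

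Among the ERK phosphatases and corepressors the order was reversed: 9 of 12 had a lower change with miR-138 than with pUC19 and none a higher one. That interaction was called for 27.8% of all genes in either direction, and the miR-137 one for 23.3%. Dusp6 rose from 280.5 to 1093 CPM in pUC19 cells (1.96 ± 0.05) and from 298 to 791 CPM with the miR-138 mimic (1.41 ± 0.05), an interaction of -0.56 ± 0.07. Spry4 rose from 34.4 to 107 CPM in pUC19 cells and from 33.5 to 50.9 CPM with the mimic (interaction -1.04 ± 0.11). With miR-137, 4 had a higher and 4 a lower change than with pUC19, with Dusp4 higher (0.88 ± 0.08) and Spry1 lower (-1.25 ± 0.12). Dividing-cell markers 2 days without serum summed to 1250.9 to 1471.0 CPM with miR-138, 2050.5 to 2097.5 CPM with miR-137 and 1941.5 to 2491.5 CPM with pUC19, and their part in these differences was not tested.

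Ordering the groups of experiment 3 by level separates the members. Ier3 was lowest in untransfected serum cells and in both miR-138 groups, whose libraries overlapped between neighbours, then at 109 ± 5.38 CPM (SD, n = 2) with miR-137 in serum and 114 ± 4.78 CPM with pUC19 in serum, which overlapped, then at 154 ± 23.5 CPM with pUC19 and 208 ± 15.2 CPM with miR-137 without serum. Egr1 ran from 38.2 ± 5.08 CPM in untransfected cells to 383 ± 13.9 CPM with miR-137 without serum, and of its neighbours only miR-138 and pUC19 without serum overlapped. Fos ran from 9.69 ± 0.536 CPM in untransfected cells to 33.6 ± 1.56 CPM in the same top group, with pUC19 in serum, pUC19 without serum and miR-138 without serum overlapping as neighbours. Junb was lowest with miR-138 without serum (43.3 ± 2.91 CPM) and highest with pUC19 in serum (127 ± 0.357 CPM), overlapping there with both miR-137 groups.

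Across the 13 group means, centred within each experiment on log2(CPM + 1), members of 1 family did not always go together. Jun and Jund had a Pearson r of 0.86, Jun and Junb 0.46, and Junb and Jund 0.19. Fos and Egr1 had 0.82, Fosl2 and Egr2 0.85, Fosl2 and Ier3 0.81, and Fos and Junb -0.02. Over 11198 genes, the 5 with patterns most like Fos were Zfp36 (0.88), Dnah17 (0.84), Isg15 (0.83), Egr1 (0.82) and Mbnl2 (0.81). Those most like Egr1 were Tmem256 (0.863), Zfp36 (0.847), Lpar2 (0.84), Akirin2 (0.84) and Fos (0.82), and those most like Ier3 were Chrnb1 (0.95), Rhou (0.94), Rhov (0.92), Map2k7 (0.915) and Plat (0.91). These are descriptions over 13 groups that share lines, controls and depth, with the best of many genes picked, and carry no test.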

How the data were processed

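Per the submitters' processing notes, reads were aligned with STAR to mm9; tool versions and the gene models behind the counts are not given in these sources. The deposited files hold whole-number read counts per gene for each library, as the authors' aligner wrote them, in unstranded and stranded columns. The stranded column that held most reads was used (the opposite strand held 3.18% to 3.81%), and summary lines for unmapped (4.53% to 9.67%), multimapping (6.77% to 18.51%), unassigned (5.34% to 16.32%) and ambiguous (0.44% to 0.74%) reads were left out. Reads in several places are not counted, which lowers genes with near-identical copies.

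Each experiment was fitted on its own over all its groups with edgeR 4.0.16 (R 4.3.3): genes with at least 10 counts by filterByExpr and 15 in total, TMM scaling, two-sided quasi-likelihood test, Benjamini-Hochberg adjustment over all genes, threshold 0.05. The SE is the unshrunk log2 fold change divided by the root of its F statistic. The script was tested on simulated data. With 2 or 3 libraries per group no permutation test of a single gene can reach the threshold, so only the models across all genes are used. DESeq2 1.42.0, median-ratio (RLE) scaling, no filter, unstranded counts, the compared groups alone, a replicate block and leaving out each library were the alternatives. Correlations between the deviations of same-numbered libraries were weak (0.043 to 0.084, -0.042 to 0.033 and -0.25 to 0.173 in experiments 1 to 3), so numbers were not taken as pairs. In experiment 1 all were above 0, so a small shared deviation remains there. With the replicate block, genes called in the genotype interaction went from 1325 to 1751.

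The members and the gene lists were chosen with earlier results of these data known. Every tested member is named in each comparison (Fosl1 passed no filter), with up to 4 genes of a list per comparison, lowest adjusted p first, and the 5 genes most like Fos, Egr1 and Ier3. Symbols came from a table of gene identifiers. Small RNA libraries were not used here.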

Additional observations from a re-analysis of the deposited data

Results flagged for a closer look

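For 16 member results the change after serum removal differed between groups by the interaction test in edgeR; no explanation is weighed. Between DKO-labelled and WT cells (DKO minus WT, log2) the difference was -0.80 for Fos, -0.97 for Jun, -0.87 for Jund, -1.17 for Egr1 and 0.58 for Ier3. Between miR-138 mimic and pUC19 cells it was 0.67 for Fos, 0.36 for Fosl2, 0.43 for Jun, 0.51 for Jund and 0.43 for Egr1. Between miR-137 mimic and pUC19 cells it was 1.41 for Fos, 0.60 for Jun, 0.57 for Junb, 0.64 for Jund, 0.99 for Egr1 and 0.50 for Ier3. The mimic differences share their pUC19 libraries, and no group was large enough for a check of single libraries that stand apart.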

How the results depend on the processing

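Of 104 called member results 86 kept their call under every alternative tried, 18 lost it under at least 1 and 0 reversed; of 57 uncalled results 14 were called under at least 1. With the replicate number as a block, members called between DKO-labelled and WT cells in serum went from 3 to 6 (Fosl2 0.20, Junb -0.18 and Egr1 0.17 were added). The block moved no other count of called members by over 1.5 times, and added single calls for Jun after serum removal with miR-138 (0.19), Jund with miR-137 against pUC19 in serum (0.24) and Ier3 in the miR-138 interaction (-0.29). Members lower or higher with miR-137 than with pUC19 in serum went from 2 to 4 with no filter and to 5 with the groups fitted alone. Leaving out 1 library at a time gave 3 to 6 members for DKO against WT in serum, 3 to 6 for the genotype interaction, 1 to 2 for miR-137 against pUC19 in serum and 3 to 5 for the miR-138 interaction. All genes called ranged from 615 to 2602 for the genotype interaction (1325 with all libraries), the high counts coming without a DKO-labelled serum library, and from 1730 to 2764 for pUC19 against no transfection (3321 with all). Where a group has 1 library left, it is assumed to vary like the others. The cause of these moves was not tested. Depth limits Fosb, Egr2 and Fosl1, with 0 to 128 reads a group.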
